A study of Mus musculus with 24 samples.

Results

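The 32 genes described here encode proteins that fold secretory cargo in the endoplasmic reticulum (ER), remove cargo that fails to fold, or act when folding falls behind. They were found by symbol in a deposited table of 49568 genes, and all 32 were present. By role they were 16 chaperones and folding helpers, 10 genes of ER-associated degradation, 3 of the unfolded protein response, and 3 of protein entry and glycosylation. Those of the unfolded protein response, called the sensor class here, were the sensor genes Atf6 and Ern1, and Xbp1, whose mRNA the Ern1 product splices. The cells were NIH/3T3, an established line of mouse embryonic fibroblasts, exposed for 24 h at 37 °C to halofuginone or to PBS as vehicle. Halofuginone blocks the prolyl-tRNA synthetase activity of EPRS, the enzyme that charges tRNAs with glutamate and proline. Poly(A) libraries were made from total RNA and from a polysome gradient divided into 3 pools, namely a pool without ribosomes or with free subunits only, light polysomes, and heavy polysomes. This gave 8 groups of 3 libraries, halofuginone and vehicle for each of the 4 kinds of RNA, in a single cell line with no genetic change named in the labels.

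The column headers divide the 24 libraries. Those of 8 (set A, 1 per group) carry no replicate number. Of these, the 2 total RNA columns carry a date-like tag and the 6 pool columns gradient fractions 1 to 2, 3 to 6 or 7 to 11. Every halofuginone column of set A, that of total RNA included, names a dose of 50 nM. Reading the 8 as 1 set was inferred from the missing number and is not stated in the headers. The other 16 (set B) carry tag 2 or 3 in total RNA and tag 2 or 4 in the pools, with fractions 1 to 5, 6 to 13 and 14 to 21, while the sample labels give 100 nM for every halofuginone sample. Which dose set A received is not settled. Libraries held 10300517 to 24970047 counts, and members made up 0.617% to 1.10% of counts in halofuginone total RNA and 0.775% to 0.915% in vehicle total RNA. Mitochondrially encoded transcripts took 8.69% to 34.9% of the ribosome-free libraries and 0.276% to 0.746% of the heavy ones. All 7 fibroblast markers were at or above 5 CPM (reads counted per gene, scaled to library size and composition) in total RNA of both treatments, with sums of 4641 to 9243 CPM in halofuginone and 9449 to 10690 CPM in vehicle libraries. None of 5 epithelial or 6 leukocyte markers reached 5 CPM in either treatment, and Vwf alone of 5 endothelial markers did. The 2 halofuginone total RNA libraries of set B were the most alike of the pairs compared, within groups and between same-tag libraries, with a mean chi-square of 3.118 per gene, against 21.06 for the vehicle libraries of the same tags. Their small spread therefore enters every set B p-value.

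Proteins that enter the ER through the Sec61 channel are bound there by the Hsp70 protein BiP, by the Hsp90 protein GRP94, by the lectins calnexin and calreticulin, and by protein disulfide isomerases. Those that do not fold are demannosylated, handed by lectins to a ubiquitin ligase complex, and drawn back to the cytosol for the proteasome. Load on the ER activates the kinases IRE1 and PERK and the membrane-bound factor ATF6. Their outputs, the factors XBP1, ATF6 and ATF4, raise transcription of many of the genes listed here, partly through ER stress response elements in the promoters. Fibroblasts carry a heavy secretory load of collagen.

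Because these genes are known as targets of shared promoter elements, the matches in their promoters are shown first. RefSeq promoters of GRCm38.p6 were at hand for 24 of the 32 genes, and the 250 bases before the start site were searched on both strands for the ER stress response element ERSE (CCAAT, then 9 bases of any kind, then CCACG). It was found in 9 member genes, and in 37 of all 32851 promoters (0.113%). The element ERSE-II (ATTGG, 1 base of any kind, CCACG) was found in Herpud1 alone among members, and in 10 of all promoters (0.0304%). Neither the XBP1-type element TGACGTGG (0.563% of all promoters) nor the ATF4-type element, searched only as TGATGNAAT (0.816%), was present in any member's window. Forms of the ATF4-type element with another last letter were not searched. The Herpud1 window holds, on the strand opposite to its gene, a stretch that differs from TGATGNAAT in the last letter only. Absence of ATF4-type elements in a wider sense was therefore not tested. ERSE and ERSE-II share the letters CCACG, and no member's window held both. Each 30-base stretch reads 5′ to 3′ on the strand of its gene, and capitals mark the fixed letters of the element or of its reverse complement. For ERSE-II in Herpud1, here and in its whole promoter window, the free base is in capitals as well.
Hspa5: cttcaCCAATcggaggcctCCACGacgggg
Hsp90b1: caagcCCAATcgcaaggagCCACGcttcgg
Hsp90b1: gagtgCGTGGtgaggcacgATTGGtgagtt
Canx: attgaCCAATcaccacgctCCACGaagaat
Dnajc3: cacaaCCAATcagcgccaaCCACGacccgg
Calr: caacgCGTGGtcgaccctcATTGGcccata
Creld2: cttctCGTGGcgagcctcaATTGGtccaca
Pdia6: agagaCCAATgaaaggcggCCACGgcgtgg
Syvn1: cgcaaCCAATcggcggtagCCACGggaaca
Derl3: tctacCGTGGgacttccccATTGGctagcc
Herpud1: cgggcgctgATTGGGCCACGttggacactg
Their places in GRCm38 are chr2:34772020-34772049 (+) for Hspa5, chr10:86705632-86705661 (-) and chr10:86705527-86705556 (-) for Hsp90b1, chr11:50325794-50325823 (-) for Canx, chr14:118937822-118937851 (+) for Dnajc3, chr8:84847069-84847098 (-) for Calr, chr15:88819515-88819544 (+) for Creld2, chr12:17266486-17266515 (+) for Pdia6, chr19:6046527-6046556 (+) for Syvn1, chr10:75893237-75893266 (+) for Derl3 and chr8:94386368-94386397 (+) for Herpud1, with the strand in parentheses. The element of Hspa5 lies 65 to 47 bases before the start site, and that of Herpud1 52 to 42 bases before it. In set B of total RNA, described further on, mRNAs of 4 of the 9 ERSE genes were higher with halofuginone (Hspa5, Hsp90b1, Canx and Dnajc3), 2 were lower (Calr and Creld2), 2 did not pass the test (Pdia6 and Syvn1) and Derl3 was too low to test. Over all genes tested in that comparison 33.1% were higher and 36.9% lower. A match is a description of letters and not of binding.

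Whole promoter windows follow for Herpud1, the only member with ERSE-II, and for Os9, whose mRNA fell most among the members in set B. The 250 bases before the start site of Os9 held none of ERSE, ERSE-II, the XBP1-type and the ATF4-type element in the forms searched. The windows lie at chr8:94386179-94386428 (+ strand) and chr10:127121161-127121410 (- strand).
Herpud1 promoter: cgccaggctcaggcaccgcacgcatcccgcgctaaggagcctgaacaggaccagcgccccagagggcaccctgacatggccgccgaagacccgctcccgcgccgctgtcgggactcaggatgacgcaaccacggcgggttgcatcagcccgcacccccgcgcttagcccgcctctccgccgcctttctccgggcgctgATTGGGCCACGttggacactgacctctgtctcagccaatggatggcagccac
Os9 promoter: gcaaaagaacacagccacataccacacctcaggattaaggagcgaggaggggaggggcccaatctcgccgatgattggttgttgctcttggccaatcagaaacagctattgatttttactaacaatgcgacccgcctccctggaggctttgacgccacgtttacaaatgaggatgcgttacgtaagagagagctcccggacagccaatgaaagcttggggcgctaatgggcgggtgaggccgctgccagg

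Per kilobase of exon, Hspa5 was the most abundant member in halofuginone total RNA at 568 ± 380.0 CPM per kb (SD, n = 3), followed by Hsp90b1 at 401 ± 146 and Calr at 312 ± 55.9 CPM per kb. The SD of Hspa5 exceeded its distance to the next gene. In vehicle total RNA Calr led at 581 ± 118 CPM per kb, followed by Hsp90b1 at 331 ± 34.1, Pdia3 at 249 ± 32.8, Hspa5 at 193 ± 25.8 and Canx at 170.4 ± 10.00 CPM per kb. Calr also led in heavy polysomes of both treatments, at 401 ± 178 CPM per kb with halofuginone and 906 ± 211 CPM per kb with vehicle. With halofuginone the next gene there, Pdia3, stood at 392 ± 259 CPM per kb, a distance within the SDs. The kinase gene Ern1 stood at 8.40 ± 4.74 CPM per kb in halofuginone total RNA, where Hspa13, Derl2 and Edem2 were lower by less than its SD, and at 3.57 ± 0.46 CPM per kb in vehicle total RNA, where it was the lowest of the 31 members other than Derl3. Derl3, a derlin found mainly in secretory tissues, had 0 counts in 22 libraries and at most 2 in the others. A count of 0 allows up to 3 counts, or 0.12 to 0.291 CPM at the depth of these libraries, and covers counting error only. The other 31 members passed the filter on low counts in each of the 9 comparisons.

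Total RNA answers which members changed in amount with halofuginone. With set A and set B together, 0 of the 31 members and 0% of 13020 genes passed an adjusted p of 0.05 in edgeR's quasi-likelihood test, in either direction. Without adjustment 5 members passed 0.05, against 17.6% of all genes, 4 of them higher (11.2% of genes) and 1 lower (6.43%). DESeq2 called 1 member, Calr, and other genes too, with 57.2% of the genes it called higher. The share of all genes that DESeq2 called is not given here. The libraries of set A and set B stood apart within the halofuginone group. Without the halofuginone library of set A, 17 members were called, 13 higher and 4 lower, along with 8246 of 13455 genes. In set B alone, 2 libraries per group, 23 of 31 members were called, 15 higher (33.1% of 13334 genes were) and 8 lower (36.9% were), against 70% of all genes called. The members' share called was close to that of all genes, and their median log2 fold change was 0.17 against -0.02 over all genes tested. In these bulk libraries, fewer cells of a kind and less RNA per cell cannot be told apart. The series text calls the replicates biological and p-values measure the spread between these libraries.

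**Figure D1:**
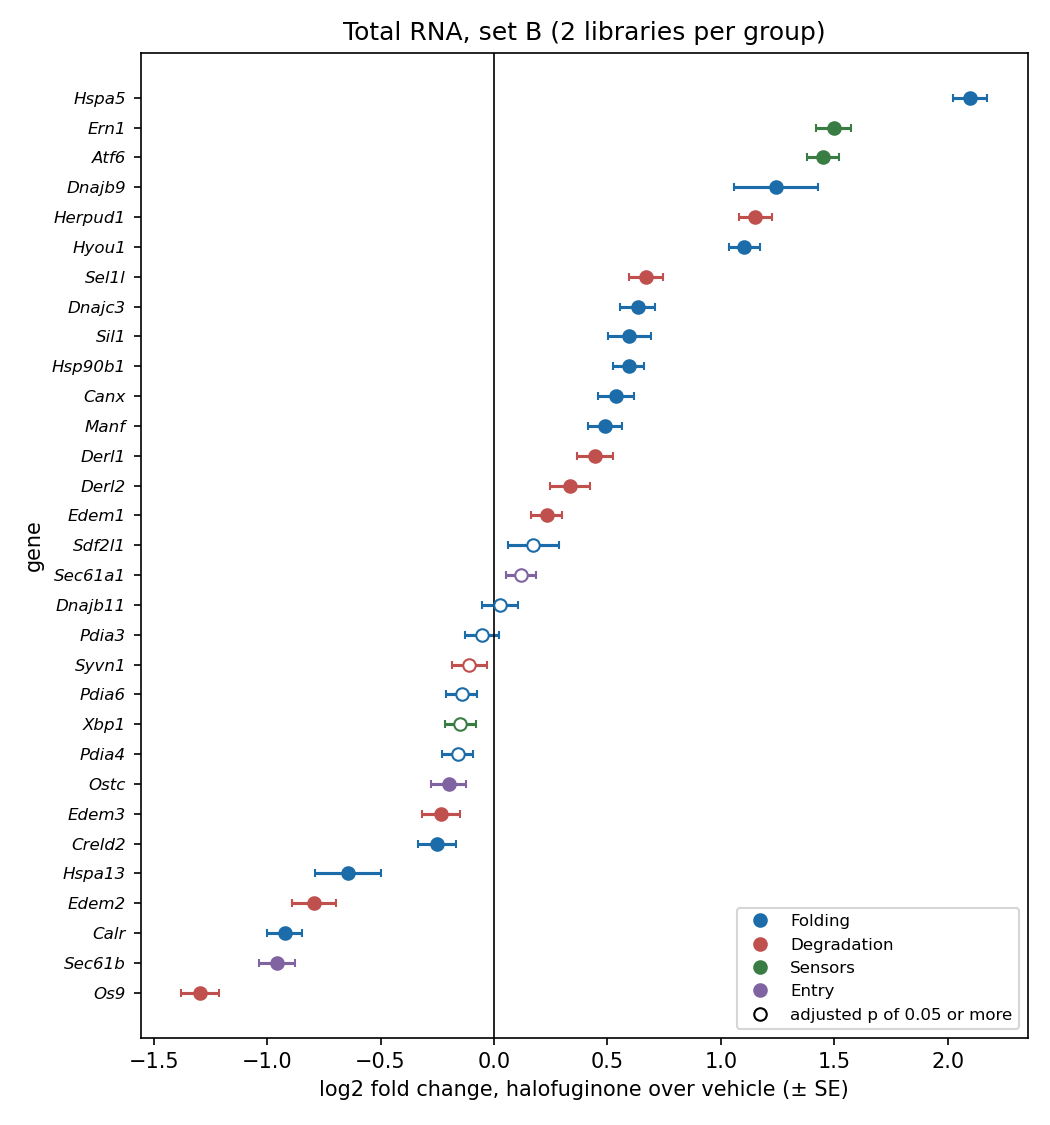
Log2 fold change of 31 members in total RNA of set B, halofuginone over vehicle, with standard errors and 2 libraries per group. Filled points passed an adjusted p of 0.05 and open points did not. Hspa5, Ern1 and Atf6 lie at the top and Os9, Sec61b and Calr at the bottom.

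Among chaperones, 8 of 16 rose and 3 fell in set B, where 33.1% of all genes tested rose and 36.9% fell. Values of 3 libraries are given here and below in the order set A, tag 2 and tag 3 for total RNA, and set A, tag 2 and tag 4 for the pools. Hspa5 (chr2:34771970-34777547), which encodes BiP, had 549, 3401 and 3259 CPM with halofuginone, against 939.7, 737 and 768 CPM with vehicle in total RNA. The tag 2 and tag 3 halofuginone libraries were above every vehicle library and the set A library was below them all. Its log2 fold change was 2.10 ± 0.074 (adjusted p = 4.51e-07) in set B and 1.56 ± 0.64 (adjusted p = 0.279) over all 6 libraries. Hsp90b1 (chr10:86690209-86705509), the ER form of Hsp90, had 938, 1957 and 1958 CPM with halofuginone, against 1494, 1263 and 1249.9 CPM with vehicle, and again the set A halofuginone library was the lowest of the 6. It rose by 0.59 ± 0.068 (adjusted p = 0.000137) in set B. Hyou1, a large Hsp70 relative that exchanges nucleotide on BiP, had 116, 288 and 282 CPM with halofuginone, against 156, 127 and 129.9 CPM with vehicle and rose by 1.10 ± 0.069 (adjusted p = 5.65e-06) in set B. Sil1, the other exchange factor, rose by 0.60 ± 0.095.

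The J-domain partners of BiP divided. Dnajb9, which also restrains IRE1, had 8.02, 33.4 and 32.4 CPM with halofuginone, against 10.1, 16.4 and 10.2 CPM with vehicle, with both set B halofuginone libraries above all others, and rose by 1.24 ± 0.19 (adjusted p = 0.000594) in set B. Dnajc3, known as p58IPK, rose by 0.63 ± 0.077, whereas Dnajb11, which binds nascent cargo, stood at 0.026 ± 0.08 and did not pass (adjusted p = 0.782). Canx, the membrane-bound lectin calnexin, rose by 0.54 ± 0.08, and Manf, a small protein that binds BiP and can be secreted, by 0.49 ± 0.074. The soluble lectin did the opposite. Calr (chr8:84841850-84846934) had 1083, 826 and 786 CPM with halofuginone, against 2055, 1407 and 1555 CPM with vehicle, so that every halofuginone library lay below every vehicle library, set A included. Its log2 fold change was -0.92 ± 0.079 (adjusted p = 2.73e-05) in set B and -0.90 ± 0.22 (adjusted p = 0.267) over 6 libraries, where DESeq2 gave -0.91 with an adjusted p of 0.0177.

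The disulfide isomerases showed no called change. Pdia3, the partner of the lectins, stood at -0.052 ± 0.074 in set B, Pdia4 at -0.16 ± 0.07 and Pdia6 at -0.14 ± 0.069. Pdia6 had 232, 266 and 251 CPM with halofuginone, against 386, 276 and 277 CPM with vehicle, all 3 halofuginone libraries below all 3 vehicle libraries, with an adjusted p of 0.363 over the 6 libraries. Creld2, an ER protein that is a common stress marker, fell by 0.25 on the log2 scale in set B, and Hspa13, an Hsp70 of the microsomes, fell by 0.64. Sdf2l1, which works with BiP and Dnajb11, stood at 0.17 ± 0.11 and was not called. Calr, Pdia4, Pdia6, Xbp1 and Ostc were the 5 members below vehicle in every total RNA library with halofuginone, where 11.6% of all genes were. No member was above vehicle in every library, where 12.2% of all genes were.

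Of 10 degradation genes, 5 rose, 3 fell, 1 did not pass and Derl3 could not be tested in set B. There 33.1% of all genes tested rose and 36.9% fell. Herpud1 (chr8:94386438-94395377), a membrane scaffold of the degradation complex, had 71.5, 136 and 134 CPM with halofuginone, against 73.2, 56.8 and 61.1 CPM with vehicle, with the set A halofuginone library inside the vehicle range. It rose by 1.15 ± 0.075 (adjusted p = 6.54e-06) in set B. Sel1l, the adaptor that joins lectins to the ligase, had 119.6, 239.6 and 238 CPM with halofuginone, against 143, 151 and 139 CPM with vehicle and rose by 0.67 ± 0.074 (adjusted p = 0.000113). Syvn1, the ubiquitin ligase HRD1 itself, had 74.2, 63.01 and 65.4 CPM with halofuginone, against 75.5, 64.7 and 69.5 CPM with vehicle, with overlapping groups. Its change in set B was -0.11 ± 0.078 (adjusted p = 0.241), which did not pass. The gene span of Syvn1 overlaps Mrpl49 on the opposite strand, and 15 members, Syvn1 included, overlap another gene. Protein-coding genes on the opposite strand also overlap Pdia3, Pdia6, Derl2 and Manf, and Manf overlaps Rbm15b on its own strand. Calr has a named pseudogene copy, Calr-ps. The strand setting of the counts is not given in the sources used here.

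The lectins and mannosidase-like proteins that mark misfolded glycoproteins fell in 3 of 4 cases in set B, where 36.9% of all genes tested fell. Os9 (chr10:127095650-127121131), a lectin that reads trimmed glycans, had 181, 59.02 and 64.2 CPM with halofuginone, against 176, 141 and 153 CPM with vehicle. The set A halofuginone library was the highest of the 6 and the tag 2 and tag 3 libraries were the lowest. Its change of -1.30 ± 0.083 (adjusted p = 6.38e-06) was the largest fall among members in set B. Edem2, which starts mannose trimming, had 41.2, 22.1 and 21.4 CPM with halofuginone, against 39.2, 34.4 and 38.7 CPM with vehicle and fell by 0.79 on the log2 scale (adjusted p = 0.000173) in set B. Edem3 stood at -0.23 ± 0.084 (adjusted p = 0.0384) and Edem1 rose by 0.23 ± 0.069 (adjusted p = 0.0175). The derlins, which form part of the exit channel, rose, Derl1 by 0.44 ± 0.08 and Derl2 by 0.33 ± 0.087. Calls of Creld2, Edem1, Edem3, Derl2 and Ostc rested on both halofuginone libraries of set B, as each lost its call when either was left out (edgeR adjusted p = 0.0575 to 0.361), and Ostc also without the tag 3 vehicle library (0.109).

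**Figure D2:**
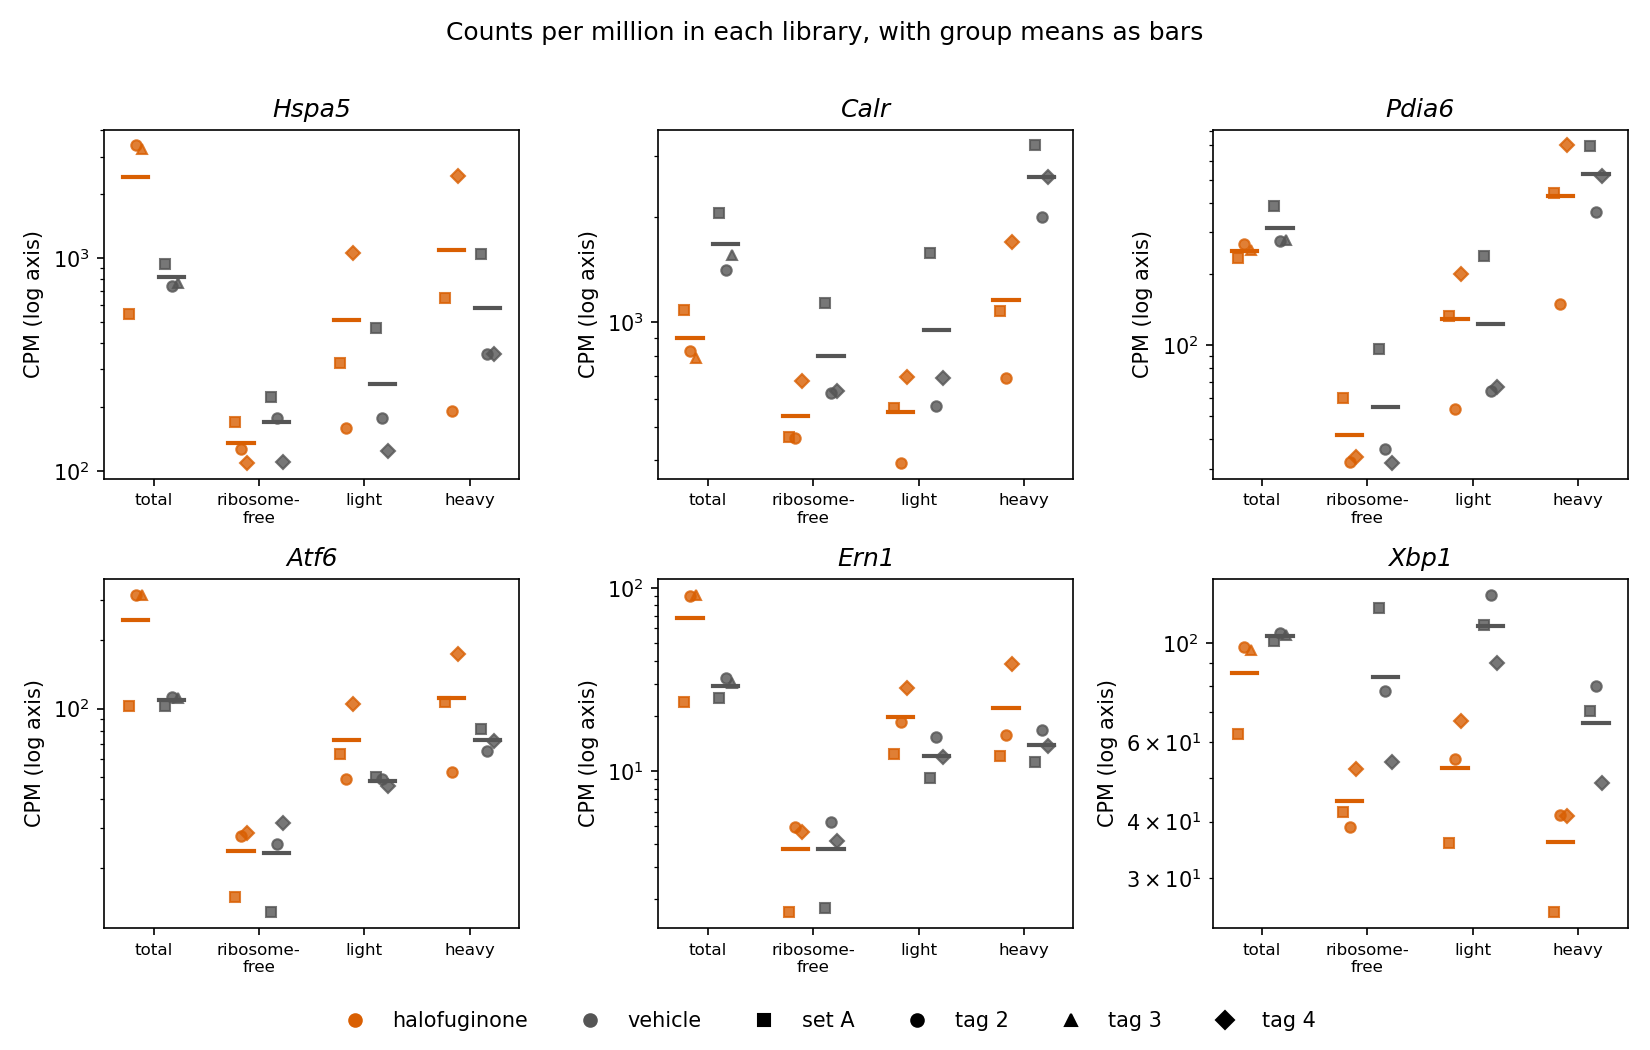
CPM (log axis) of 6 members in each library of the 4 kinds of RNA, with the halofuginone group left of the vehicle group and a bar at each group mean. Squares are set A, and other marks are the tags of set B. For Hspa5, Atf6 and Ern1 the tag 2 and tag 3 halofuginone libraries of total RNA and the tag 4 halofuginone libraries of the polysome pools stand above the rest.

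Of the 3 genes of the sensor class, Atf6 and Ern1 rose in set B and Xbp1 did not pass. Atf6 (chr1:170704674-170867771), whose product is cut from the membrane to act in the nucleus, had 102, 315 and 317 CPM with halofuginone, against 102, 112 and 111 CPM with vehicle. The set A halofuginone library was the lowest of the 6 by a narrow margin, and the other 2 were the highest. Its log2 fold change was 1.45 ± 0.069 (adjusted p = 1.57e-06) in set B and 1.17 ± 0.42 (adjusted p = 0.268) over 6 libraries. Ern1 (chr11:106394650-106487852), the kinase and nuclease IRE1 alpha, had 23.9, 90.4 and 91.7 CPM with halofuginone, against 24.98, 32.2 and 30.3 CPM with vehicle, with the same order of libraries. It rose by 1.497 ± 0.078 (adjusted p = 2.33e-06) in set B. Xbp1 (chr11:5520659-5525893), the mRNA that IRE1 splices, had 62.6, 98.1 and 96.4 CPM with halofuginone, against 101, 105 and 104 CPM with vehicle, every halofuginone library below every vehicle library. Its change was -0.15 ± 0.068 (adjusted p = 0.083) in set B and -0.27 ± 0.21 (adjusted p = 0.454) over 6 libraries, so the difference was not called. Gene counts do not separate spliced from unspliced Xbp1.

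At the entry to the ER, Sec61a1, the channel subunit, had 347, 367 and 359 CPM with halofuginone, against 354, 322 and 326 CPM with vehicle, with overlapping groups, and was not called in set B (log2 fold change 0.12 ± 0.067, adjusted p = 0.144). Sec61b, a small subunit of the same channel, had 58.8, 25.2 and 24.96 CPM with halofuginone, against 55.2, 47.5 and 46.8 CPM with vehicle. The set A halofuginone library was the highest of the 6, and the other 2 were the lowest. It fell by 0.96 on the log2 scale (adjusted p = 2.33e-05) in set B. Ostc, a subunit of the oligosaccharyl transferase, fell by 0.20 (adjusted p = 0.0451).

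Neighbouring parts of the pathway were read from lists chosen with earlier results of these data known. In set B, where 33.1% of all genes tested rose and 36.9% fell, 6 of 17 other ER folding genes rose and 10 fell, from Ero1l, the oxidase that recharges disulfide isomerases, at a log2 fold change of 2.10 ± 0.094 to the prolyl isomerase Fkbp14 at -3.21 ± 0.14. Of 19 other degradation genes 9 rose and 4 fell, from Erlin1, which assists degradation of membrane proteins, at 1.95 ± 0.075 to the segregase Vcp at -1.02 ± 0.07. Among 18 other genes of translocation, signal cleavage and glycosylation 6 rose and 2 fell. Called genes ran from Stt3a, a catalytic subunit of the oligosaccharyl transferase, at 0.61 ± 0.094 to its subunit Ddost at -0.39 ± 0.069. The lowest value of the whole list was -0.45. Other sensors and proteases of the stress response mostly fell, 6 of 8, with the membrane-bound factor Creb3l2 lowest at -1.42 ± 0.075. The protease gene Mbtps2, whose product helps to release ATF6, rose by 1.20 ± 0.22. All 6 genes of the PERK and ATF4 branch rose, by 0.74 to 3.94, with Trib3, an inhibitor of that branch, highest at 3.94 ± 0.092. Their median log2 ratio in set A of total RNA was 0.25, against 3.28 for tag 2 and 2.97 for tag 3. The fibroblast markers fell in set B, 7 of 7, by log2 fold changes of -3.25 to -0.75. Markers of other cell types moved as well. Vwf, the endothelial marker tested, rose by 2.30 in set B. Its means over all 3 libraries per group, set A included, were 64.0 CPM in halofuginone and 14.1 CPM in vehicle total RNA. Of the 2 leukocyte markers tested in set B, Cd74 rose by 5.92 and Cd68 fell by 1.86. With halofuginone first, means over all 3 libraries per group were 3.04 and 0.0649 CPM for Cd74, and 1.95 and 3.58 CPM for Cd68. The part of these markers in the members' changes was not tested.

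In the gradient pools halofuginone was compared with vehicle within each pool, so changes in mRNA amount enter these values as well. Comparisons of the change between kinds of RNA are given further on. In each pool 0 of 31 members passed edgeR's test at an adjusted p of 0.05, as did 0% of 11960, 12632 and 12222 genes in the ribosome-free, light and heavy pools. Without adjustment 1, 1 and 2 members passed 0.05 in those pools, against 0.251%, 4.27% and 6.17% of all genes. DESeq2 called none of the members in any pool. It called no gene in the ribosome-free pool, but did call some in light and heavy polysomes. Treating libraries with the same tag as a replicate block called no member either, where 0.125%, 0.0237% and 0.0164% of genes were. No member was above vehicle in all 3 libraries of a pool (1.15%, 4.43% and 5.4% of genes were), and 1, 3 and 5 members were below it in the ribosome-free, light and heavy pools (0.853%, 5.97% and 7.06% of genes). In heavy polysomes Hspa5 had 652, 191 and 2432 CPM with halofuginone, against 1043, 354 and 354 CPM with vehicle. In light polysomes Hspa5 had 322, 159 and 1054 CPM with halofuginone, against 471, 178 and 124 CPM with vehicle. For Hspa5 the ribosome-free pool gave 169.7, 126 and 109 CPM with halofuginone, against 222, 177 and 109.6 CPM with vehicle. The tag 4 halofuginone library was the highest of all in both polysome pools, and the tag 2 halofuginone library was the lowest in heavy polysomes. The groups overlapped in each pool.

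**Figure D3:**
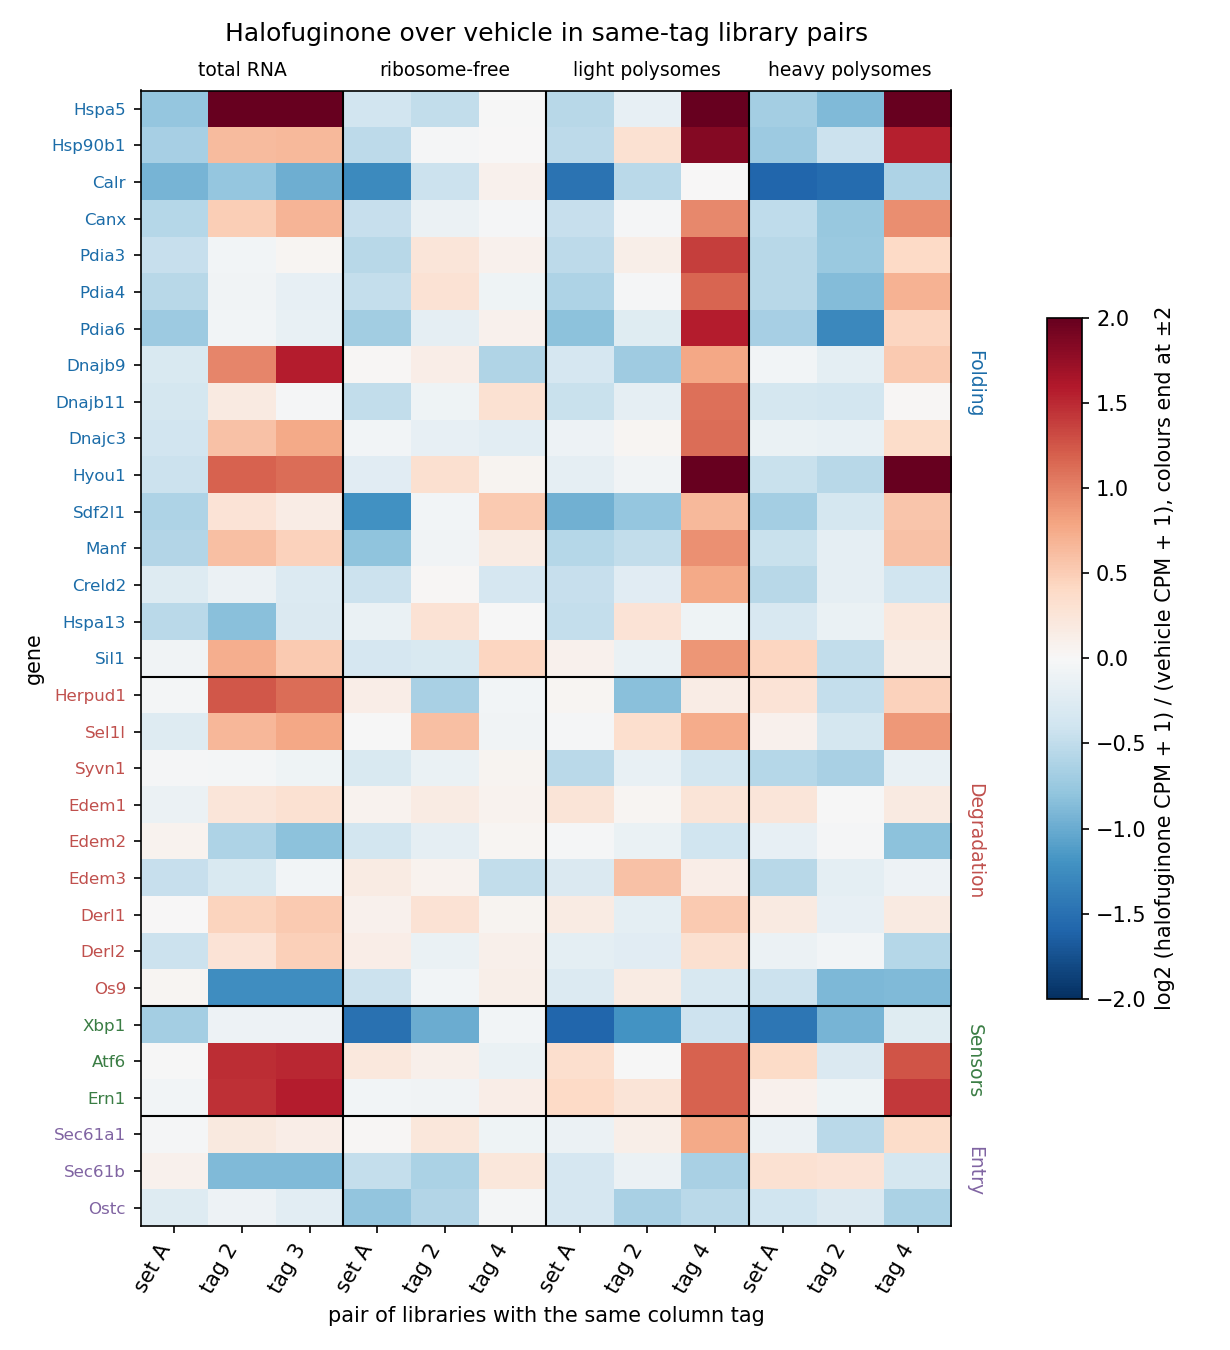
Log2 ratio of halofuginone over vehicle CPM (plus 1) for 31 members (rows, by class) in 12 pairs of libraries with the same column tag (columns, by kind of RNA). Red is higher and blue lower with halofuginone, and colours end at ±2. Chaperones are mostly red in tag 2 and tag 3 of total RNA and in tag 4 of both polysome pools, and mostly blue in set A.

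Ratios between same-tag libraries show this for the class. The median log2 ratio of the 16 chaperones in heavy polysomes was -0.53 in set A, with 1 of 16 above 0, -0.47 for tag 2, with 0 above 0, and 0.48 for tag 4, with 14 above 0. Light polysomes gave -0.50, -0.15 and 1.03, and the ribosome-free pool -0.46, -0.06 and 0.03, in the same order. Over 10125 genes the medians of these pairs lay between -0.02 and 0.06. In total RNA the set A pair gave -0.55, with 0 of 16 above 0, the tag 2 pair 0.38 and the tag 3 pair 0.30. The median of the 9 degradation genes varied less between pairs, at -0.12 (set A), -0.20 (tag 2) and -0.10 (tag 4) in heavy polysomes. Single degradation genes ran in both directions, from -0.89 to 0.87 in the tag 4 pair of that pool. The 3 genes of the sensor class gave medians of 0.09, -0.29 and 1.25 in heavy polysomes, in the same order. Across the 31 members the set B fold changes of total RNA had a Spearman correlation of 0.773 with the tag 4 ratios of heavy polysomes, 0.64 with those of light polysomes and -0.132 with those of the ribosome-free pool. The same correlation was 0.0407 for tag 2 and 0.33 for set A of heavy polysomes. It was 0.0266 for tag 2 and 0.384 for set A of light polysomes. The ribosome-free pool gave 0.129 for tag 2 and 0.423 for set A, and set A of total RNA gave -0.0448. These are descriptions across genes, from libraries that share no control, and genes are not replicates. The median of the PERK and ATF4 genes also differed by tag in heavy polysomes, where the set A pair gave 1.29, the tag 2 pair -0.45 and the tag 4 pair 2.08, and its part in the members' values was not tested.

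The Hsp90 chaperone showed the same order of libraries in heavy polysomes. In heavy polysomes Hsp90b1 had 643, 246 and 1302 CPM with halofuginone, against 1068, 333 and 444 CPM with vehicle. In light polysomes Hsp90b1 had 251, 168 and 456 CPM with halofuginone, against 359.6, 135 and 127 CPM with vehicle. For Hsp90b1 the ribosome-free pool gave 153, 124 and 89.2 CPM with halofuginone, against 219.7, 126 and 89.1 CPM with vehicle. The tag 4 halofuginone library was the highest and the tag 2 halofuginone library the lowest in heavy polysomes, and the groups overlapped in each pool. Calr had the lowest log2 fold change of all members there. In heavy polysomes Calr had 1072, 690.5 and 1703 CPM with halofuginone, against 3220.5, 2003 and 2604 CPM with vehicle. In light polysomes Calr had 565, 393 and 692 CPM with halofuginone, against 1576, 574 and 692 CPM with vehicle. For Calr the ribosome-free pool gave 467, 464 and 675 CPM with halofuginone, against 1130.4, 624 and 635 CPM with vehicle. In heavy polysomes every halofuginone library lay below every vehicle library, and the log2 fold change was -1.18 ± 0.37 (edgeR adjusted p = 0.792). The groups overlapped in the other pools.

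The degradation genes follow, from scaffold to ligase. In heavy polysomes Herpud1 had 82.9, 49.8 and 104 CPM with halofuginone, against 68.4, 69.8 and 75.9 CPM with vehicle. In light polysomes Herpud1 had 74.3, 41.7 and 89.2 CPM with halofuginone, against 72.3, 75.5 and 80.8 CPM with vehicle. For Herpud1 the ribosome-free pool gave 61.4, 36.9 and 68.3 CPM with halofuginone, against 55.7, 58.3 and 70.7 CPM with vehicle. The tag 2 halofuginone library was the lowest of 6 in each pool. In heavy polysomes Sel1l had 123, 52.6 and 168 CPM with halofuginone, against 116, 67.5 and 91.4 CPM with vehicle. In light polysomes Sel1l had 45.1, 41.6 and 69.6 CPM with halofuginone, against 46.04, 32.9 and 41.1 CPM with vehicle. For Sel1l the ribosome-free pool gave 15.7, 37.2 and 28.4 CPM with halofuginone, against 15.7, 24.2 and 29.96 CPM with vehicle. The groups of this adaptor overlapped in each pool. In heavy polysomes Syvn1 had 56.2, 40.03 and 61.4 CPM with halofuginone, against 83.5, 63.2 and 68.5 CPM with vehicle. In light polysomes Syvn1 had 60.6, 64.4 and 59.9 CPM with halofuginone, against 88.8, 71.4 and 77.2 CPM with vehicle. For Syvn1 the ribosome-free pool gave 26.1, 34.3 and 43.2 CPM with halofuginone, against 32.5, 37.6 and 41.8 CPM with vehicle. For the ligase every halofuginone library was below every vehicle library in heavy and in light polysomes. Its log2 fold changes there were -0.45 ± 0.25 (adjusted p = 0.846) and -0.36 ± 0.23 (adjusted p = 0.981).

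In the sensor class, Xbp1 kept 1 direction. In heavy polysomes Xbp1 had 25.2, 41.5 and 41.2 CPM with halofuginone, against 70.4, 80.1 and 48.7 CPM with vehicle. In light polysomes Xbp1 had 35.9, 55.1 and 67.1 CPM with halofuginone, against 109.7, 128 and 90.1 CPM with vehicle. For Xbp1 the ribosome-free pool gave 42.02, 38.8 and 52.3 CPM with halofuginone, against 119, 78.3 and 54.3 CPM with vehicle. In each pool all halofuginone libraries lay below all vehicle libraries. The log2 fold changes were -0.89 ± 0.30 in heavy polysomes, -1.05 ± 0.30 in light polysomes and -0.92 ± 0.39 in the ribosome-free pool, with edgeR adjusted p of 0.792, 0.981 and 1. Xbp1 and Ostc were the 2 members below 0 in all 12 same-tag pairs, where 3.23% of 10125 genes were, and no member was above 0 in all 12, where 2.23% were. Tags do not pair the total RNA libraries.

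The sensor genes Atf6 and Ern1 followed Hspa5 in which library stood highest in the polysome pools. In heavy polysomes Atf6 had 107, 52.9 and 173 CPM with halofuginone, against 81.4, 64.8 and 72.1 CPM with vehicle. In light polysomes Atf6 had 63.3, 49.2 and 105 CPM with halofuginone, against 49.9, 49.3 and 45.7 CPM with vehicle. For Atf6 the ribosome-free pool gave 14.9, 27.4 and 28.4 CPM with halofuginone, against 12.8, 25.4 and 31.4 CPM with vehicle. The tag 4 halofuginone library was the highest in both polysome pools. In heavy polysomes Ern1 had 12.1, 15.7 and 38.2 CPM with halofuginone, against 11.3, 16.7 and 13.7 CPM with vehicle. In light polysomes Ern1 had 12.4, 18.5 and 28.3 CPM with halofuginone, against 9.16, 15.3 and 11.96 CPM with vehicle. For Ern1 the ribosome-free pool gave 1.70, 4.97 and 4.64 CPM with halofuginone, against 1.80, 5.25 and 4.16 CPM with vehicle. Again the tag 4 halofuginone library was the highest in both polysome pools, and the groups of both genes overlapped in each pool. At the entry to the ER the channel subunit gave values that overlapped in each pool. In heavy polysomes Sec61a1 had 499.6, 262 and 601 CPM with halofuginone, against 542, 382 and 466 CPM with vehicle. In light polysomes Sec61a1 had 283, 178 and 364 CPM with halofuginone, against 308, 164 and 214 CPM with vehicle. For Sec61a1 the ribosome-free pool gave 154, 134 and 137 CPM with halofuginone, against 152, 114 and 145 CPM with vehicle.

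Whether the change on heavy polysomes differed from that in total RNA was tested as an interaction over 12 libraries. No member was called and none passed 0.05 without adjustment, against 0% called and 0.951% passing without adjustment among 13459 genes in edgeR. DESeq2 called none of the members, although it called some other genes. The difference of log2 changes, heavy polysomes minus total RNA, was -0.63 ± 1.16 for Hspa5, -0.55 ± 0.63 for Atf6, -0.56 ± 0.71 for Ern1 and -0.60 ± 0.38 for Xbp1. Against the ribosome-free pool it was 1.33 ± 1.03 for Hspa5, -0.52 ± 0.58 for Calr, 0.67 ± 0.64 for Atf6 and 0.73 ± 0.77 for Ern1, and again 0 members and 0% of 13053 genes were called, with 0.406% passing 0.05 without adjustment. The standard errors of these differences, 0.28 to 1.16 for heavy polysomes against total RNA and 0.38 to 1.03 against the ribosome-free pool, were as large as many of the differences.

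Heavy polysomes and the ribosome-free pool were also compared within each treatment. CPM in this comparison was scaled over both pools together. With halofuginone, 8 of 31 members took a larger share of heavy polysomes than of the ribosome-free pool (8.47% of all genes did) and 1 took a smaller share (12.6% did), against 21.1% of 12238 genes called. They were Hsp90b1, Pdia3, Pdia6, Dnajb11, Dnajc3, Creld2, Sil1 and Ern1, and Sec61b was lower. With vehicle, 8 members were higher (11.9% of genes) and Sec61b lower (17.7%), against 29.6% of 12225 genes called. The 8 were Pdia3, Pdia4, Pdia6, Dnajc3, Creld2, Sil1, Sel1l and Os9. The median log2 difference of all 31 members was 0.92 with halofuginone and 0.86 with vehicle, against 0.02 and -0.02 over all genes. A replicate block by tag, which the pools' correlations allow, called 13 members with halofuginone and 14 with vehicle, where 30.3% and 36.9% of all genes were called. These counts moved with single libraries. With halofuginone 2 members were called without the tag 2 ribosome-free library (1727 of 12706 genes were), the tag 4 ribosome-free library (1292 of 12655) or the set A heavy library (688 of 12669). Without the tag 4 heavy library 3 members were called (1096 of 12843 genes), and without the tag 2 heavy library 14 (2573 of 12645). With vehicle 17 members were called without the set A ribosome-free library, where 5844 of 12389 genes were. Without the tag 2 ribosome-free library 4 were called (2539 of 12740 genes), without the set A heavy library 4 (1897 of 12500) and without the tag 4 heavy library 5 (2157 of 12894).

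The disulfide isomerase Pdia6 had the highest log2 difference of all members. With halofuginone, Pdia6 had 337, 113 and 547 CPM in heavy polysomes, against 75.9, 40.5 and 43.5 CPM in the ribosome-free pool. With vehicle, Pdia6 had 531, 279 and 396 CPM in heavy polysomes, against 136, 47.04 and 41.6 CPM in the ribosome-free pool. The pools did not overlap in either treatment, and the differences were 2.64 ± 0.60 (adjusted p = 0.0133) with halofuginone and 2.42 ± 0.55 (adjusted p = 0.0124) with vehicle. With halofuginone, Pdia3 had 790.4, 409.6 and 1668 CPM in heavy polysomes, against 298, 258 and 286 CPM in the ribosome-free pool. With vehicle, Pdia3 had 1151, 691 and 1226 CPM in heavy polysomes, against 487, 224 and 275 CPM in the ribosome-free pool. The differences of Pdia3 were 1.77 ± 0.53 (adjusted p = 0.0397) with halofuginone and 1.64 ± 0.46 (adjusted p = 0.0275) with vehicle, both called. With halofuginone, Pdia4 had 192, 105 and 549.7 CPM in heavy polysomes, against 85.2, 102 and 100.0 CPM in the ribosome-free pool. With vehicle, Pdia4 had 282, 192 and 329.5 CPM in heavy polysomes, against 131, 86.1 and 108 CPM in the ribosome-free pool. The heavy libraries of Pdia4 were above the ribosome-free ones in both treatments. Its difference of 1.56 ± 0.58 (adjusted p = 0.0799) with halofuginone was not called, that of 1.30 ± 0.38 (adjusted p = 0.0312) with vehicle was, and the interaction of treatment and pool was not.

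Of the other helpers of BiP, Sil1, Creld2 and Dnajc3 were called in both treatments, and Manf, Sdf2l1 and Dnajb9 in neither. With halofuginone, Sil1 had 65.6, 30.1 and 82.1 CPM in heavy polysomes, against 17.04, 7.40 and 11.97 CPM in the ribosome-free pool. With vehicle, Sil1 had 48.3, 43.00 and 71.4 CPM in heavy polysomes, against 23.98, 9.66 and 8.71 CPM in the ribosome-free pool. Differences for this exchange factor were 2.28 ± 0.49 (adjusted p = 0.011) with halofuginone and 1.94 ± 0.46 (adjusted p = 0.0143) with vehicle. With halofuginone, Creld2 had 76.7, 79.2 and 76.8 CPM in heavy polysomes, against 31.7, 16.4 and 12.5 CPM in the ribosome-free pool. With vehicle, Creld2 had 112, 89.7 and 98.04 CPM in heavy polysomes, against 47.5, 16.6 and 16.3 CPM in the ribosome-free pool. Creld2 was higher in every heavy library than in every ribosome-free library, with differences of 1.94 ± 0.44 (adjusted p = 0.013) with halofuginone and 1.90 ± 0.47 (adjusted p = 0.0171) with vehicle. With halofuginone, Dnajc3 had 64.6, 58.7 and 87.5 CPM in heavy polysomes, against 27.9, 31.9 and 23.2 CPM in the ribosome-free pool. With vehicle, Dnajc3 had 70.3, 65.02 and 65.8 CPM in heavy polysomes, against 32.01, 36.9 and 27.3 CPM in the ribosome-free pool. Dnajc3 gave 1.34 ± 0.37 (adjusted p = 0.0292) with halofuginone and 1.06 ± 0.30 (adjusted p = 0.0268) with vehicle, again without overlap.

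The other J-domain partner and the Hsp90 chaperone were called with halofuginone. With halofuginone, Dnajb11 had 175, 154 and 189 CPM in heavy polysomes, against 92.8, 53.6 and 45.4 CPM in the ribosome-free pool. With vehicle, Dnajb11 had 223, 199 and 181 CPM in heavy polysomes, against 145, 58.5 and 37.03 CPM in the ribosome-free pool. The differences were 1.43 ± 0.42 (adjusted p = 0.0366) with halofuginone and 1.32 ± 0.51 (adjusted p = 0.0795) with vehicle, and the pools did not overlap. With halofuginone, Hsp90b1 had 494, 187 and 1022 CPM in heavy polysomes, against 196, 156 and 115 CPM in the ribosome-free pool. With vehicle, Hsp90b1 had 817, 254 and 338 CPM in heavy polysomes, against 309, 163 and 117 CPM in the ribosome-free pool. The pools overlapped for Hsp90b1 in both treatments, although its difference of 1.87 ± 0.59 (adjusted p = 0.0472) with halofuginone was called. With vehicle it was 1.26 ± 0.56 (adjusted p = 0.121).

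Os9 and Sel1l, the lectin and the adaptor of degradation, were called with vehicle. With halofuginone, Os9 had 99.99, 38.4 and 70.7 CPM in heavy polysomes, against 29.9, 30.4 and 37.6 CPM in the ribosome-free pool. With vehicle, Os9 had 134, 72.6 and 128 CPM in heavy polysomes, against 44.7, 32.5 and 35.2 CPM in the ribosome-free pool. The differences of Os9 were 1.09 ± 0.43 (adjusted p = 0.0907) with halofuginone and 1.57 ± 0.37 (adjusted p = 0.0131) with vehicle. With halofuginone, Sel1l had 94.3, 39.96 and 132 CPM in heavy polysomes, against 20.01, 46.7 and 36.6 CPM in the ribosome-free pool. With vehicle, Sel1l had 88.7, 51.4 and 69.7 CPM in heavy polysomes, against 22.2, 31.2 and 39.2 CPM in the ribosome-free pool. Sel1l gave 1.36 ± 0.51 (adjusted p = 0.0808) with halofuginone, where the pools overlapped, and 1.18 ± 0.36 (adjusted p = 0.0362) with vehicle. With halofuginone, Ern1 had 9.26, 11.9 and 30.01 CPM in heavy polysomes, against 2.17, 6.25 and 5.99 CPM in the ribosome-free pool. With vehicle, Ern1 had 8.62, 12.7 and 10.5 CPM in heavy polysomes, against 2.53, 6.77 and 5.45 CPM in the ribosome-free pool. The kinase mRNA gave 1.83 ± 0.58 (adjusted p = 0.047) with halofuginone and 1.12 ± 0.44 (adjusted p = 0.0858) with vehicle, without overlap.

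Xbp1 and Sec61b lay on the other side. With halofuginone, Xbp1 had 19.3, 31.5 and 32.3 CPM in heavy polysomes, against 53.6, 48.8 and 67.4 CPM in the ribosome-free pool. With vehicle, Xbp1 had 53.8, 61.03 and 37.1 CPM in heavy polysomes, against 168, 101 and 71.1 CPM in the ribosome-free pool. The pools did not overlap, with differences of -1.03 ± 0.38 (adjusted p = 0.0771) with halofuginone and -1.16 ± 0.41 (adjusted p = 0.06) with vehicle, and the replicate block by tag brought the vehicle value to an adjusted p of 0.0345. With halofuginone, Sec61b had 22.8, 38.4 and 27.3 CPM in heavy polysomes, against 251, 99.3 and 129 CPM in the ribosome-free pool. With vehicle, Sec61b had 18.3, 31.7 and 34.03 CPM in heavy polysomes, against 385, 158 and 111 CPM in the ribosome-free pool. Sec61b, with a coding sequence of 96 codons, had the lowest differences of all members, -2.44 ± 0.48 (adjusted p = 0.00789) with halofuginone and -2.96 ± 0.55 (adjusted p = 0.00533) with vehicle.

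**Figure D4:**
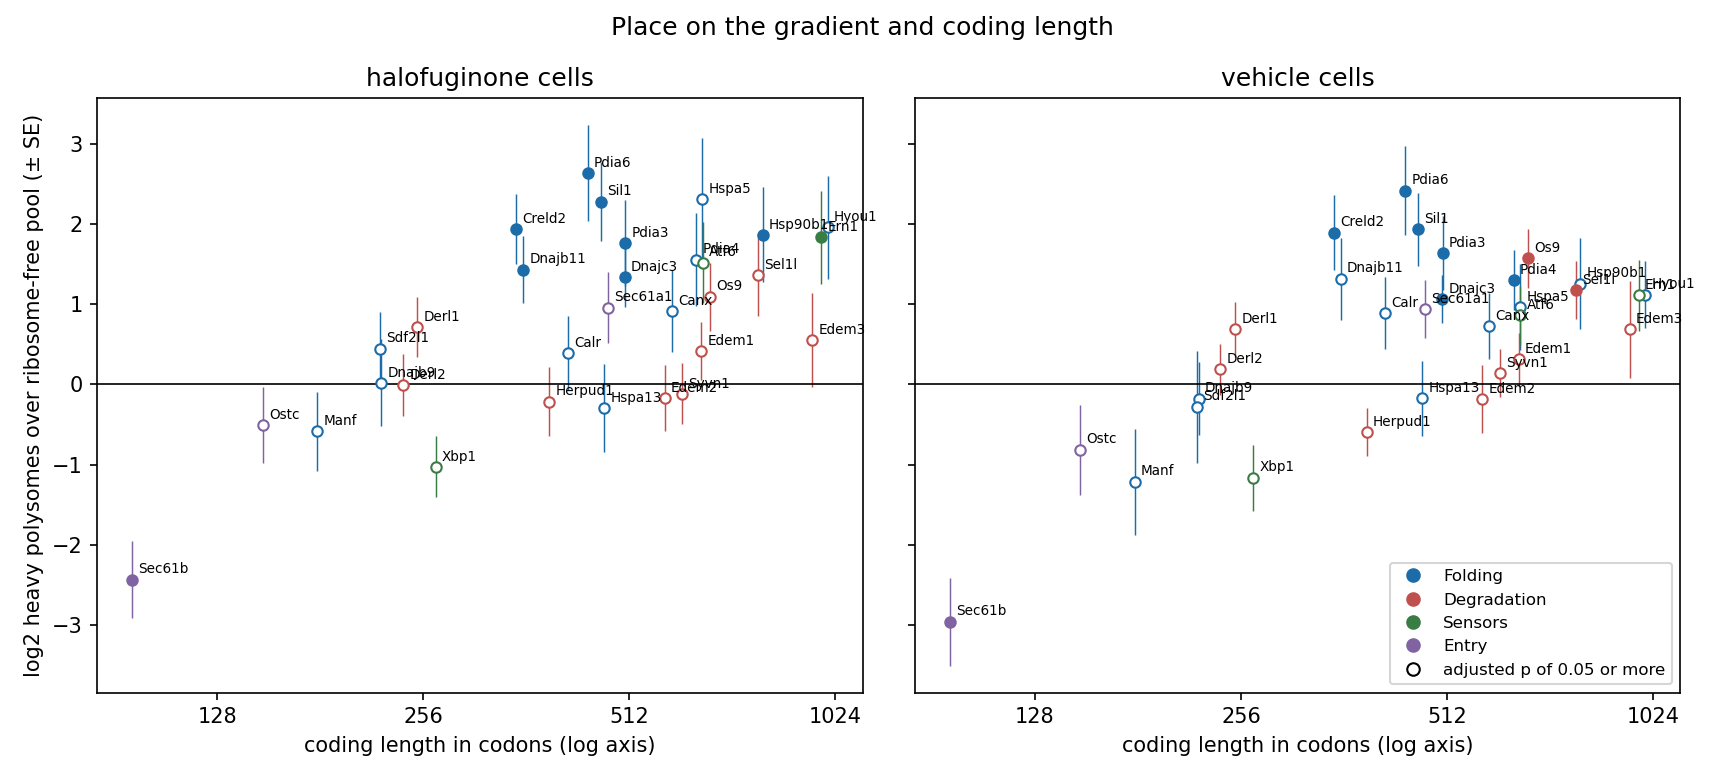
Log2 difference between heavy polysomes and the ribosome-free pool, with standard errors, against coding length in codons (log axis) for 31 members, with halofuginone on the left and vehicle on the right. Filled points passed an adjusted p of 0.05. Sec61b, with 96 codons, is lowest in both.

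The order of members on the gradient went with coding length. Across 31 members the Spearman correlation of coding length with the difference was 0.546 with halofuginone and 0.497 with vehicle. Over 10956 genes with a coding sequence it was 0.456 with vehicle. Proline codons, which need the tRNA charged by the enzyme that halofuginone blocks, were most frequent in Syvn1 at 13.6% and Herpud1 at 10.2%, where the median of 21484 genes was 5.27%. Glutamate codons were most frequent in Os9 at 14.9%, Hsp90b1 at 13.6% and Calr at 12.3%, against a median of 6.35%. Across members the set B fold change of total RNA had a Spearman correlation of -0.242 with the share of proline codons and 0.0101 with that of glutamate codons. Both are descriptions over 31 genes.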

How the data were processed

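The deposited table holds counts of reads per gene, 1 column for each of 24 libraries. Per the submitters' processing notes, the authors' tools included Trimmomatic 0.36, STAR 2.5.2b and Subread 1.5.0p3 with featureCounts, and the build GRCm38.p5. The strand setting is not given in the sources used here. Column headers name the group but not the sample, so columns were assigned to groups only. The 8 columns with no replicate tag were treated as 1 set (set A).

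Counts were tested in edgeR 4.0.16 (R 4.3.3) by quasi-likelihood within each kind of RNA, after TMM scaling and filterByExpr, with Benjamini-Hochberg adjustment over all genes tested and a threshold of 0.05. The test was tried on simulated counts. CPM are TMM-scaled. Same-tag ratios used CPM plus 1. DESeq2 1.42.0, other scaling and filters, a replicate block by tag, set as a covariate, set B alone and each library left out were alternatives. Deviations from group means over 10125 genes correlated within a tag at 0.822 to 0.933 in the ribosome-free, 0.411 to 0.816 in the light and 0.357 to 0.782 in the heavy pools, and at 0.00444 to 0.448 in total RNA, so tags pair the pools but not total RNA. Heavy and ribosome-free libraries of the same tag correlated at 0.198 to 0.444. Gene positions are from GENCODE M21. Members and lists were chosen with earlier results of these data known. All 32 members may be named. Values of every library are given for 10 members and for others called with 3 libraries per group or among the 4 largest rises and falls in set B. From context lists the most changed called genes are named.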

Additional observations from a re-analysis of the deposited data

How the results depend on the processing

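In total RNA, 0 members were called under other scaling, filters, the replicate block or the set covariate, and DESeq2 called 1. Leaving out single libraries gave 0 to 17 members, where 0 to 8246 of all genes were called. In set B of total RNA the replicate block called 21 members and DESeq2 20, where edgeR without a block called 70% of all genes. Since tags do not pair total RNA, the block there only shares a number. With the block Edem3 and Ostc were not called. In the pools and interactions every alternative called 0 members. For heavy polysomes against the ribosome-free pool with halofuginone, DESeq2, no filter and the set covariate each called 15 members. The stricter filter and set B alone each called 5. Single libraries left out gave 2 to 14 members, where 688 to 3600 of all genes were called. With vehicle the replicate block called 14 (36.9% of all genes were), the set covariate 15 and set B alone 16. Single libraries left out gave 4 to 17 members, where 1897 to 5844 of all genes were called. Shares of all genes under the other alternatives are not given here, so those counts are not read as particular to the members. Signs turned for uncalled values when single libraries were left out. Over these, Hspa5 ranged from -0.094 to 1.76 in light and from -0.45 to 1.63 in heavy polysomes, lowest without the tag 4 halofuginone library. Its interaction ranged from -2.03 to 0.093 against total RNA and from -0.075 to 2.04 against the ribosome-free pool. Calr ranged from -0.66 to 0.0082 against total RNA. In set B Pdia3 ranged from -0.090 to 0.0090, at 0.0058 without the tag 3 halofuginone library, and Dnajb11 from -0.059 to 0.13. The causes were not tested. In the gradient comparison the median log2 difference of all genes was -0.029 with halofuginone and -0.049 with vehicle under median-of-ratios scaling, and -0.14 and -0.16 with no filter.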

Other observations

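Chaperones outside the ER changed in set B of total RNA too. All 8 mitochondrial chaperones and proteases of a list chosen with earlier results known were higher with halofuginone in edgeR, from 0.20 to 1.88 on the log2 scale. The protease Lonp1 was highest. Of 14 cytosolic heat shock genes tested 4 were higher and 7 lower, from the Hsp90 gene Hsp90aa1 at 1.22 to the inducible Hsp70 gene Hspa1b at -4.76. Over all genes tested in that comparison 70% were called, 33.1% higher and 36.9% lower.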
